A study of Mus musculus with 2 samples.

Results

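Voltage-gated channels and potassium channels are described here as 1 gene set across long-read RNA sequencing libraries of mouse hippocampus. The set was chosen by name and not by any measured value. It holds every protein-coding gene whose symbol starts with Kcn (potassium channel subunits), the voltage-gated sodium channel genes Scn with an a (alpha) or b (beta) ending, the 4 pacemaker (HCN) genes, and the calcium channel genes Cacna1, Cacna2d and Cacnb1 to Cacnb4. These are 130 of the 55536 annotated genes. Long-read sequencing reads a cDNA copy of an RNA as 1 read, so each read keeps the order of the exons it holds. The tissue was total RNA from hippocampus, labelled as a layer of hippocampus, taken at 14 days of age from female mice of strain B6CASTF1/J (a first-generation cross between C57BL/6J and CAST/EiJ). There was 1 group of 2 libraries, each made from a pool of 3 animals with 2 µg of RNA and added spike-in RNAs, and no second condition. One label field gives the pools different animals and another repeats the animals of replicate 1 for replicate 2, so the libraries may not be wholly separate animals, and p-values here cover counting error between these libraries only. The replicates are therefore compared only with each other, and tests on reads compare these libraries and not conditions.

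Replicate 1 held 1168366 reads and replicate 2 held 888704. One read was worth 0.856 CPM (counts per 1000000 reads of the library) in replicate 1 and 1.13 CPM in replicate 2. A count of 0 allows up to 3 reads, or 2.57 and 3.38 CPM. Intervals below are exact Clopper-Pearson intervals at 95%, and intervals and limits cover counting error only. The 10 genes listed as hippocampal neuron markers were all read in both libraries and summed to 4560.2 and 4547.1 CPM, with 2 called higher in replicate 1 (Nrgn and Pcp4) and 4 in replicate 2 (Slc17a7, Wfs1, C1ql2 and Prox1). Interneuron markers summed to 1031 and 752 CPM, of which Cck alone held 658 and 375. Of these 7 genes, Cck and Sst were called higher in replicate 1 and Gad1 in replicate 2. Astrocyte markers summed to 3157 and 4989 CPM (6 of 8 called higher in replicate 2). Myelin markers summed to 4826 and 6487 CPM (3 of 6 tested called higher in replicate 2). Markers of oligodendrocyte precursors (313 and 401 CPM), microglia (535 and 676) and vessels (485 and 562) had fewer reads. The libraries stood apart in markers of choroid plexus, the epithelium that lines the ventricles beside the hippocampus: the 8 listed genes summed to 4619.3 CPM in replicate 1 and 11.25 CPM in replicate 2. In tissue RNA, fewer cells of a type and less RNA per cell cannot be told apart.

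Voltage-gated channels open when the membrane voltage changes. Sodium channels start the action potential, potassium channels end it and set how soon the next can follow, calcium channels couple it to transmitter release and signalling, and HCN channels carry a current that opens on hyperpolarization and sets the rhythm of many neurons. The pore is built by large subunits (alpha or alpha1), and smaller accessory subunits (beta, alpha2delta, KChIP) change where it sits and how fast it opens. Inward rectifier and 2-pore-domain potassium channels lack the voltage sensor and hold the resting potential of neurons and glia.

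Most of these channel genes were read, at low levels. Of the 130 genes, 113 had at least 1 read, 107 in replicate 1, 101 in replicate 2, and 95 in both. That is 73.1% read in both, against 60.6% of the 21898 other protein-coding genes. The channel genes together held 3298 reads in replicate 1 and 2906 in replicate 2 (2823 and 3269.9 CPM). Among genes read in both libraries the median of the mean level was 15.2 CPM for channel genes and 21.95 CPM for the other protein-coding genes. Reads were concentrated: 15 genes had at least 100 reads, 39 had 1 to 9, and the 10 most read held 51% of all channel reads. Each read counts 1 cDNA and CPM is not divided by length, while the coding regions here differ widely in length, so an order of genes below is an order of read counts and not of RNA abundance.

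**Figure D1:**
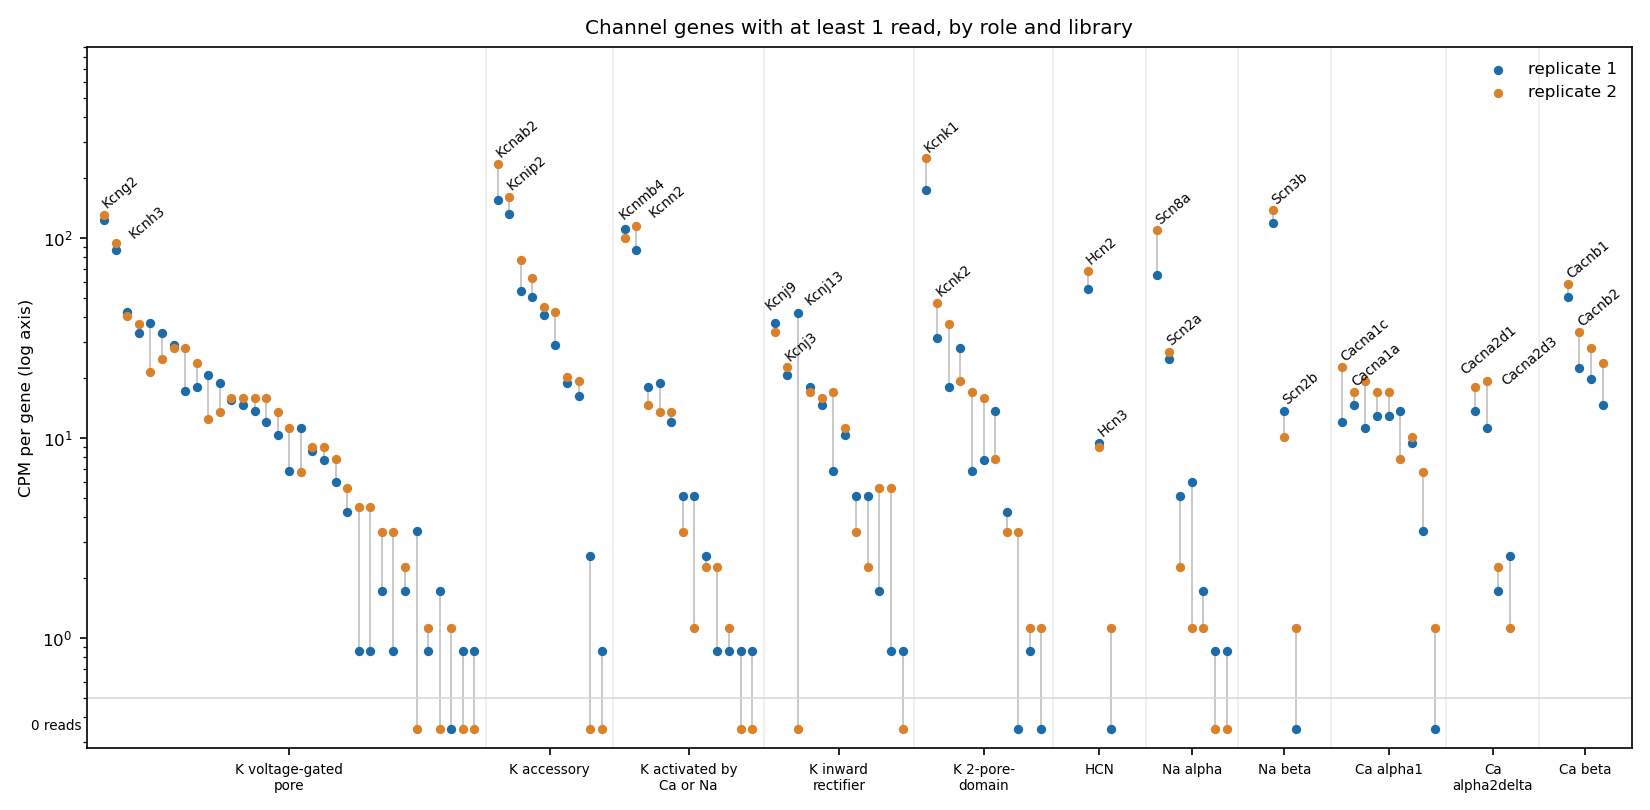
Level of channel genes with at least 1 read, in CPM on a log axis, by role; each gene has 1 point per library joined by a grey line, and points under the lower line are libraries with 0 reads. Kcnk1 stands at 173 and 249.8 CPM, and Kcnj13 is the gene with the widest gap, at 41.9 CPM in replicate 1 and 0 reads in replicate 2.

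Voltage-gated potassium pore subunits were the largest role, with 40 genes, of which 36 were read, with 819 and 670 reads (727 ± 37.4 CPM, SD, n = 2). Kcng2, a silent subunit that forms channels only together with other pore subunits, led with 143 reads in replicate 1 and 116 in replicate 2 (126.5 ± 5.75 CPM). Kcnh3, an ether-a-go-go-like subunit found mainly in forebrain, had 101 and 84 reads (90.5 ± 5.71 CPM). Kcna7, Kcna10, Kcnh4 and Kcnh8 had 0 reads in both libraries.

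The potassium accessory subunits were 13 genes, 10 of them read, with 583 and 589 reads (581 ± 116 CPM). Kcnab2, a cytosolic beta subunit of Kcna channels, had 181 and 208 reads (194.5 ± 55.95 CPM), and its relative Kcnab1 had 63 and 69 (65.8 ± 16.8 CPM). Kcnip2 (153 and 143 reads, 146 ± 21.2 CPM) and Kcnip3 (59 and 56 reads, 56.8 ± 8.85 CPM) are KChIPs, calcium-binding partners of the A-type channels built by Kcnd genes. Against these counts the Kcnd pore gene Kcnd2 had 9 and 8 reads. Kcne1, Kcne3 and Kcnrg had 0 reads.

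All 12 genes of calcium- or sodium-activated potassium channels were read in at least 1 library, with 307 and 237 reads (265 ± 2.77 CPM). Kcnmb4, the brain beta subunit of the large-conductance channel, had 129 and 89 reads (105.3 ± 7.26 CPM), while the pore gene of that channel, Kcnma1, had 21 and 13 (16.3 ± 2.37 CPM). Kcnn2, a small-conductance channel that carries part of the afterhyperpolarization, had 102 reads in each library (101 ± 19.4 CPM), and Kcnn1 had 22 and 12 (16.2 ± 3.77 CPM). Kcnn1 codes for another pore subunit of the small-conductance family.

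Inward rectifiers held 191 and 119 reads over 12 of 15 genes (149 ± 20.9 CPM). Kcnj9 and Kcnj3, subunits of the channel opened by G protein-coupled receptors, had 44 and 30 reads (35.7 ± 2.76 CPM) and 24 and 20 reads (21.5 ± 1.39 CPM). Kcnj10, the main inward rectifier of astrocytes, had 21 and 15 reads (17.4 ± 0.7745 CPM). Kcnj13 is known from choroid plexus and retinal pigment epithelium and had 49 reads in replicate 1 and 0 in replicate 2. Kcnj1, Kcnj5 and Kcnj15 had 0 reads in both.

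Of the 2-pore-domain leak channels 11 of 14 genes were read, with 332 and 358 reads (343.5 ± 83.9 CPM). Kcnk1 took most of them, with 202 and 222 reads (211 ± 54.4 CPM). Kcnk2, a leak channel sensitive to stretch and lipids, had 37 and 42 reads (39.5 ± 11.02 CPM), Kcnk12 had 21 and 33 (27.55 ± 13.55 CPM) and Kcnk4 33 and 17 (23.7 ± 6.45 CPM). Kcnk15, Kcnk16 and Kcnk18 had 0 reads. Among the HCN genes, all 4 were read, with 94 and 83 reads (86.9 ± 9.15 CPM). Hcn2 had 65 and 61 (62.1 ± 9.2 CPM), Hcn3 11 and 8, and Hcn4 0 and 1. The order Hcn2, Hcn3, Hcn4 was thus the same in both libraries.

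Sodium channels had many more reads on accessory than on pore genes. The 4 beta genes, small proteins with 1 membrane span, held 586 and 456 reads (507 ± 8.17 CPM), and the 10 alpha genes held 122 and 125 (122.5 ± 25.6 CPM). Scn3b had 138 and 122 (127.7 ± 13.55 CPM), Scn2b 16 and 9 (11.9 ± 2.52 CPM) and Scn4b 0 and 1. Among the pore genes, Scn8a, the main channel of the mature axon initial segment and node, had 76 and 97 reads (87.1 ± 31.2 CPM; mm10 chr15:100869858-101045938, plus strand). Scn2a, known from unmyelinated axons, had 29 and 24 (25.9 ± 1.545 CPM). Scn1a, known from interneurons, had 7 and 1 reads, and Scn3a, known for its expression before birth, 6 and 2. The gene of the muscle channel, Scn4a, and the sensory neuron genes Scn10a and Scn11a had 0 reads in both libraries.

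Calcium channel pore genes had few reads each. The 10 alpha1 genes held 105 reads in each library (104 ± 20 CPM). Cacna1c (L-type) had 14 and 20, Cacna1a (P/Q-type, at release sites) 17 and 15, Cacna1h (T-type) 13 and 17, and Cacna1b (N-type) and Cacna1g (T-type) 15 and 15 each. Cacna1f, known from retina, had 0. The alpha2delta genes, which carry the pore to the surface, held 34 and 36 reads: Cacna2d1 16 and 16, Cacna2d3 13 and 17, Cacna2d2 2 and 2, and Cacna2d4 3 and 1. The 4 intracellular beta genes held 125 and 128 reads (125.5 ± 26.2 CPM), led by Cacnb1 with 59 and 52, before Cacnb2 (26 and 30), Cacnb4 (23 and 25) and Cacnb3 (17 and 21).

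Exon choice was read directly in the spliced reads, and the sequences of exons it turned on are given 5′ to 3′ from GENCODE M21 transcripts on mm10, so that the alternatives can be seen. In Scn8a an exon of 123 nt, whose skipping or replacement is known to give a shortened protein, was included in 34 of 36 and 50 of 53 reads that joined its neighbours. The 68-nt exon that can replace it was in 0 and 1 reads.

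The calcium channel beta genes also choose between exons in the stretch that links their 2 conserved domains. In Cacnb1 an exon of 20 nt (chr11:98010627-98010646, minus strand) was in 33 and 36 reads and the alternative exon of 155 nt in 2 and 1. The short exon made up 94.3% (80.8 to 99.3) and 97.3% (85.8 to 99.9). Cacnb4 has an exon of the same length at the same place (chr2:52465894-52465913, minus strand), which was in 6 and 9 reads, and the other 20-nt exon of the gene was in 0. In Cacnb2 the balance was the other way round, with an exon of 134 nt in 13 reads of each library and a 20-nt exon in 1 read of each. The short exons of Cacnb1 and Cacnb4, which prevailed over the alternative exon in both genes, are shown in capitals between 18 bases of the exon before and the exon after.
Cacnb1: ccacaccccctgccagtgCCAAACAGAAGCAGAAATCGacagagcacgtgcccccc
Cacnb4: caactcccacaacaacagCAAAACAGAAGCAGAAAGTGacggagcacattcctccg

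Cassette exons, which are either included or skipped between the same neighbours, were read in both forms, included and skipped, in 72 events with at least 10 reads, in 30 channel genes. The rarer form had at least 3 reads in 25 of these events, in 15 genes. The KChIP exons below had lengths divisible by 3, so inclusion keeps the reading frame. They are shown in capitals between 18 bases of each neighbouring exon, minus strand of mm10, because both forms of them are annotated, were read in both libraries and differ by whole codons.
Kcnip1, 33 nt, chr11:33651540-33651572: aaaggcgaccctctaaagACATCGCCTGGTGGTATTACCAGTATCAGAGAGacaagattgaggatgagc
Kcnip2, 54 nt, chr19:45796279-45796332: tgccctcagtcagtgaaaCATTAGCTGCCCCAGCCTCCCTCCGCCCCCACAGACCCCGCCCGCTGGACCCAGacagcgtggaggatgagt
Kcnip2, 96 nt, chr19:45797091-45797186: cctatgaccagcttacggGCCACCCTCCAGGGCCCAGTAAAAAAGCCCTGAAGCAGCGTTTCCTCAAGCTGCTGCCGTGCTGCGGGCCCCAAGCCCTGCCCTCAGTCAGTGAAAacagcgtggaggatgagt

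The 33-nt exon of Kcnip1 was included in 16 of 44 reads in replicate 1 and 6 of 36 in replicate 2, or 36.4% (22.4 to 52.2) and 16.7% (6.37 to 32.8). The intervals overlap, and the unadjusted p of Fisher's exact test was 0.0772. In Kcnip2 the 54-nt exon follows the 96-nt exon, and it was included in 116 of 121 and 110 of 117 reads that held the 96-nt exon, so the form with both prevailed. Among reads without the 54-nt exon the 96-nt exon was in 5 of 10 and 7 of 16.

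Both forms of 5 further potassium channel exons were read in both libraries. In Kcnc2, a fast delayed rectifier of interneurons, a 104-nt exon was in 9 of 24 and 11 of 21 reads. In Kcnk2 a 118-nt exon was in 17 of 20 and 27 of 32 reads, and in Kcnk4 a 127-nt exon in 15 of 18 and 9 of 10. The 111-nt exon of Kcnn1 was in 13 of 18 and 10 of 11 reads, and the 217-nt exon of Kcnj3 in 13 of 14 and 14 of 16. Of these only the Kcnn1 exon has a length divisible by 3. None of the 49 channel events that could be tested differed between the libraries after Benjamini-Hochberg adjustment over all 11685 events (Fisher's exact test, 1 called, 0.00856%). At an unadjusted p of 0.05, 1 of the 49 passed, a 167-nt exon of Kcng2, whose inclusion between these neighbours is not annotated and which was included in 29 of 85 reads in replicate 1 and 8 of 52 in replicate 2 (unadjusted exact p = 0.018, adjusted p = 1).

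**Figure D2:**
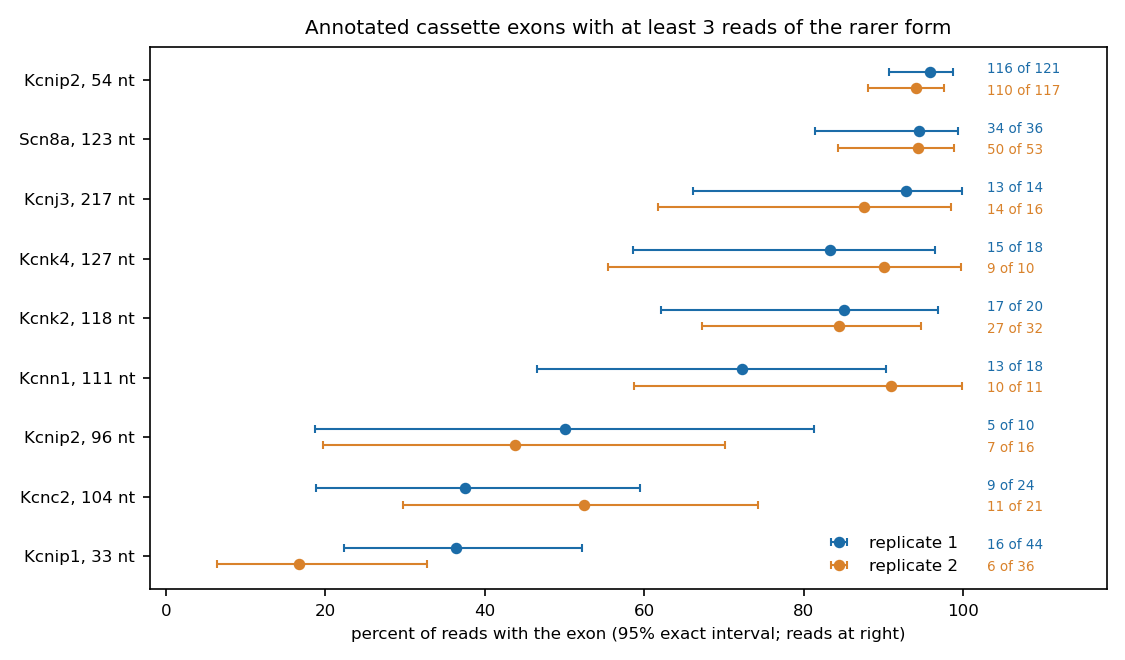
Percent of reads that include each annotated cassette exon, for 9 events of channel genes with both forms annotated and at least 3 reads of the rarer form; points are libraries, bars are exact 95% intervals, and the reads with the exon of all reads at the event stand at right. The exons range from the Kcnip2 54-nt exon, included in 116 of 121 and 110 of 117 reads, to the Kcnip1 33-nt exon, included in 16 of 44 and 6 of 36, and the intervals of the 2 libraries overlap at each exon.

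A single transcript led several of the most read genes. Kcnk1-201, Kcnmb4-201 and Kcnn2-208 held 90.6%, 89.9% and 83.3% of their gene's reads in replicate 1 and 93.2%, 92.1% and 82.4% in replicate 2. Kcnip2-209 held 73.2% and 75.5%. Lower leading shares stood in Kcnab2 (Kcnab2-207, 40.3% and 42.3%), Kcnh3 (Kcnh3-201, 33.7% and 38.1%) and Scn3b (Scn3b-201, 30.4% and 27.0%). In Kcng2 an unannotated chain of 3 exons led, with 39.2% and 37.1%. In Scn8a 1-exon models of all classes, counted together, held 30 of 76 and 33 of 97 reads (39.5% and 34.0%). The most read of these models lay at several places near the 3′ end, so they are not 1 form. A read within 1 exon does not show that its RNA was unspliced. The most read spliced transcript of Scn8a was Scn8a-203, with 15 and 17 reads. The splice junctions of Kcnn2-208 (coding region 1722 nt) are also the last ones of the 11-exon Kcnn2-201 (2517 nt), so a read that lacks the upstream exons of the longer form cannot be told apart from Kcnn2-208. Reads that spanned the longer coding region were 1 and 0.

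The leading share did not pass the test in any of the 32 channel genes tested (a minimum of 20 reads per library), against 159 of all 6607 genes tested (Fisher's exact test, Benjamini-Hochberg adjustment, 2.41%). At an unadjusted p of 0.05, 3 of the 32 passed (9.38%, against 9.41% of all genes). Among them were Kcnk2 and Kcnc2, in both of which 1-exon models of the genomic class, counted together, led. With all 1-exon models of a gene pooled, Kcnc2 had 12 of 39 and 8 of 33 such reads and did not pass (unadjusted exact p = 0.604). With a minimum of 10 reads in each library, 1 of 58 passed (1.72%, against 164 of all 8909 genes, 1.84%). This was Cacnb3, whose 1-exon models of the incomplete splice match class held 11 of 17 reads in replicate 1 and 0 of 21 in replicate 2 (adjusted exact p = 0.00108). Over all classes of 1-exon models Cacnb3 had 11 and 6 such reads.

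Some choices lay at the ends of the transcripts. Scn3b has a short intron of 90 nt in the 3′ untranslated region. Among reads with a splice junction and an annotated last exon it was spliced in 56 of 98 and 52 of 94. This is 57.1% (46.75 to 67.1) and 55.3% (44.7 to 65.6), and it was kept in 33 and 36. The coding region has the same length in both forms. Another 8 and 6 of these reads used a different last exon and bear on neither form. Reads on a 1-exon model that spans this intron, 40 and 27, are not counted, so the spliced share over all Scn3b reads may be lower. Cacnb1 used its 2 last exons evenly, with 19 and 19 reads in replicate 1 and 21 and 21 in replicate 2. The coding region is 1791 nt in Cacnb1-201, which has the first of these ends, and 1437 nt in the transcript that held most reads with the other end (14 and 17). Kcnc2 ended in the 3′ exon of Kcnc2-201 in 9 reads of each library and in that of Kcnc2-204 in 5 reads of each. The first exon read was also mixed in Scn3b, where the main one held 73 of 97 and 69 of 92 reads. It was mixed in Kcng2 (main one 96 of 123 and 61 of 95) and in Scn8a (22 of 32 and 29 of 43). First exons were assigned by the splice site at their end. A read that stops early is therefore counted where that site also ends an annotated first exon. In Scn3b the other first exon (22 and 23 reads) ends at a site that 92 and 86 reads joined to the next exon. Early stops cannot be told apart from a second first exon there.

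Whole coding regions were read for the short channel genes and seldom for the long ones. A read is counted as complete here if its model spans an annotated start and stop codon with exactly the annotated introns between them. Annotated transcripts are matched by their splice junctions, so an assignment does not show that a read reached both ends. Complete models held 62.2% of channel reads in replicate 1 (60.6 to 63.9) and 62.01% in replicate 2 (60.2 to 63.8), against 74.3% and 74.6% for the other protein-coding genes. By role the share was 84.6% and 83.1% for sodium beta genes, 77.4% and 83.2% for 2-pore-domain channels, 71.7% and 70.6% for inward rectifiers, and 69.1% and 68.8% for potassium accessory subunits. It was 53.2% and 51.5% for voltage-gated potassium pores, 56.4% and 57.8% for HCN genes and 27.2% and 32.0% for calcium beta genes. It was 21.3% and 27.2% for sodium alpha genes and 0 of 105 reads in each library for calcium alpha1 genes (upper limit of the interval 3.45%).

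**Figure D3:**
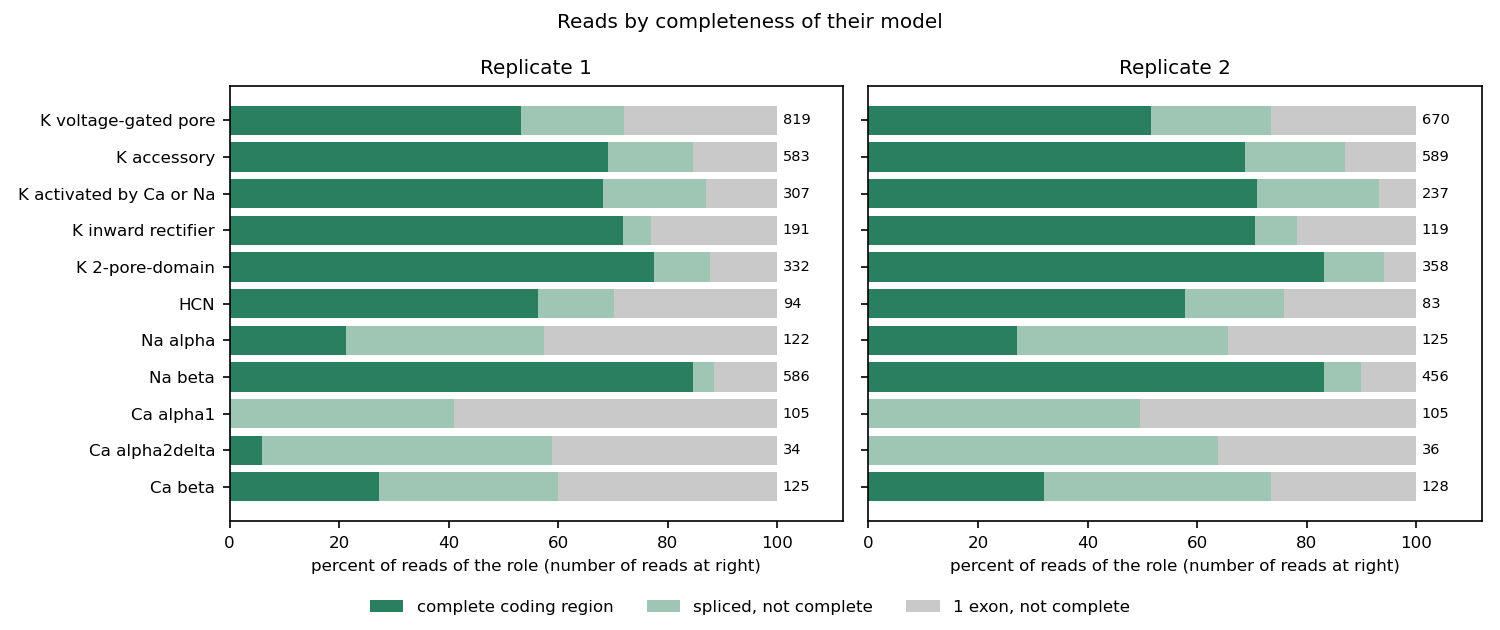
Reads of each role by completeness of their model, in percent of the role's reads in each library; dark green is a complete annotated coding region, light green a spliced model without it, and grey a 1-exon model without it, with the number of reads at right. Sodium beta genes are mostly complete (84.6% and 83.1%) and calcium alpha1 genes have none complete among 105 reads in each library.

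Long channel messages were nevertheless reached in part. Scn8a, with 27 exons and a coding region of 5964 nt, had 22 and 29 complete reads, and Scn2a, of 6018 nt, had 3 and 5. Scn1a had 1 complete read in replicate 1 and 0 in replicate 2, and Scn3a had none. Among the alpha1 genes 1 and 3 reads spanned the longest coding region from start to stop but none with exactly the introns of an annotated coding transcript. The longest spliced models were of 48 exons in Cacna1d, 46 in Cacna1b, 44 in Cacna1c and 35 in Cacna1g. Annotated coding transcripts of these genes have up to 49, 47, 49 and 38. Spliced models of Cacna1e, with up to 47 annotated exons, held no more than 7. The median spliced read held 27 exons in Scn8a and 4 in Cacna1a.

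The share of complete reads was lower at longer coding length, in channel genes and in other genes. With coding regions of up to 1000 nt it was 82.5% and 81.1% for channel genes and 81.7% and 82.2% for other protein-coding genes, and the intervals overlapped. From 1001 to 2000 nt it was 67.0% and 68.0% against 74.9% and 76.9%. From 2001 to 4000 nt it was 37.5% and 40.4% against 56.2% and 59.1%, and over 4000 nt 11.5% and 14.8% against 20.5% and 21.1%. In the 3 longer classes the channel genes stood below the other genes in both libraries, with intervals that do not overlap. Reads of 1 gene are not independent, and a class rests on as few as 16 channel genes, so these intervals describe the libraries and are no test between kinds of gene.

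**Figure D4:**
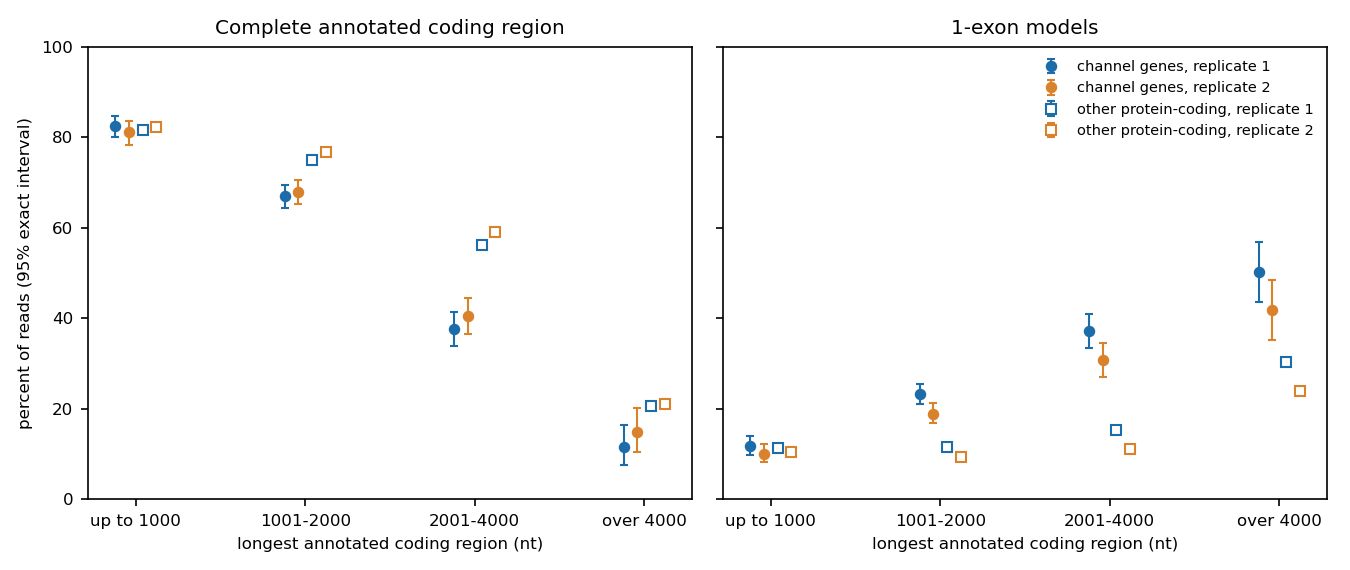
Percent of reads on models with a complete annotated coding region (left) and on 1-exon models (right), by length of the longest annotated coding region; filled circles are channel genes, open squares other protein-coding genes, colours are libraries, and bars are exact 95% intervals. Complete channel reads are 82.5% and 81.1% in the shortest class and 11.5% and 14.8% in the longest, and 1-exon channel reads are 11.8% and 10.05% against 50.2% and 41.7%.

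Reads on models without any splice junction held 24.2% of channel reads in replicate 1 (22.7 to 25.7) and 20.5% in replicate 2 (19.05 to 22.0), against 12.3% and 10.5% for other protein-coding genes. Up to 1000 nt of coding length the shares were 11.8% and 10.05% against 11.3% and 10.5%, with overlapping intervals. They were 23.2% and 18.9% against 11.4% and 9.31% from 1001 to 2000 nt, 37.1% and 30.7% against 15.3% and 11.1% from 2001 to 4000 nt, and 50.2% and 41.7% against 30.4% and 24.0% over 4000 nt. Of these reads 722 and 528 were not assigned to an annotated transcript, though they may be parts of one. Among them 78.5% and 81.8% lay mostly in the 3′ untranslated region, 8.31% and 8.33% in introns and 5.54% and 5.68% in coding sequence. Another 22 and 9 reads stood on models recorded at under 50 nt, so the coordinates of 1-exon models do not always delimit their reads.

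The share of 1-exon reads differed widely between channel genes. Among the 30 channel genes with at least 50 reads the 5 highest shares included those of Kcna1 (17 of 34 and 9 of 25 reads) and Scn2a (16 of 29 and 7 of 24). For Kcna1, a delayed rectifier of axons whose coding region has no intron, these reads match an annotated 1-exon transcript. In Scn3b, 40 and 27 reads stood on a model of 3166 nt (chr9:40288453-40291618, plus strand) in the 3′ untranslated region. The lowest shares were in Kcnn2 (2 of 102 and 0 of 102), Kcnip1 (0 of 48 and 1 of 40), Kcnk1 (3 of 202 and 2 of 222), Kcng2 (2 of 143 and 2 of 116) and Kcnmb4 (5 of 129 and 0 of 89). Each of those 5 genes was read almost wholly as spliced RNA in both libraries.

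Annotated transcripts took 55.1% and 55.2% of channel reads, against 72.0% and 71.8% of the reads of other protein-coding genes. Channel reads exceeded the others in the genomic class, which holds reads that match no splice chain (17.8% and 16.2% against 7.72% and 6.5%), and in incomplete splice matches (15.4% and 14.9% against 10.9% and 10.7%). Spliced models that matched no whole annotated transcript, incomplete splice matches among them, formed 396 chains in replicate 1 and 415 in replicate 2. Of these chains 139 were in both and held 61.5% and 59.4% of such reads. The most read of these was the 3-exon chain of Kcng2, a new combination of annotated sites that holds the complete coding region, with 56 and 43 reads. An 8-exon chain of Kcnip4 followed with 27 and 26, then a 15-exon chain of Kcnab2 with 20 and 25. Both are incomplete splice matches that lack upstream junctions of an annotated transcript, so reads that stop early cannot be told apart from them. The Kcnab2 chain holds a complete annotated coding region. Next came a 4-exon chain of Kcng2 with 29 and 8, and another 3-exon chain of Kcng2 with 12 and 16. Kcng2 thus gave 3 of the 5 most read, and annotated transcripts held 0 of its 143 reads in replicate 1 and 1 of 116 in replicate 2.

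Antisense reads came from unannotated loci on the opposite strand. Loci that overlapped an exon of a channel gene by at least 1 nt held 419 reads in replicate 1 and 218 in replicate 2, over 65 channel genes, or 12.7 and 7.5 for each 100 sense reads, against 6.21 and 5.03 for the other protein-coding genes. The difference was not the same at all coding lengths. Up to 1000 nt the rate was 2.22 and 0.827 against 3.51 and 3.06, and from 1001 to 2000 nt it was 5.71 and 5.32 against 6.66 and 5.14. From 2001 to 4000 nt it was 29.2 and 11.4 against 9.61 and 6.53, and over 4000 nt 55.95 and 33.9 against 35.6 and 24.9. Channel genes thus exceeded the others in both libraries in the longer classes only, and few genes held much of these reads. From 2001 to 4000 nt Kcnma1 had 82 and 40 and Kcnn2 53 and 0 of 190 and 67 channel reads. Over 4000 nt Cacna1e had 47 and 31 of 127 and 78. These rates thus rest in part on single genes. From 2001 to 4000 nt, 12.9% of channel genes had at least 10 antisense reads, against 12.0% of other genes. Over 4000 nt it was 30% of 20 channel genes, against 15.2%. Whether this is a trait of long channel genes in general was not tested. Of the 637 reads 290 overlapped exons by under 100 nt, and only 16 were spliced. Most lay over introns (373) or over untranslated and non-coding exons (204), and 12 lay over coding sequence. The sources used here do not give how the strand of unspliced reads was set, so a sense read placed on the wrong strand cannot be told apart from an antisense read at these loci.

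Over both libraries together, 10 of 130 channel genes (7.69%) had more antisense than sense reads, against 3.57% of other protein-coding genes. By coding length these were 1 of 20 channel genes up to 1000 nt (5% against 1.78%), 1 of 59 from 1001 to 2000 nt (1.7% against 3.53%), 3 of 31 from 2001 to 4000 nt (9.68% against 5.61%) and 5 of 20 over 4000 nt (25% against 10.5%). Cacna1e, an R-type calcium channel gene, had 47 and 31 antisense reads and 11 and 9 sense reads, and all of its antisense reads overlapped exons by at least 100 nt. Of these, 43 and 29 stood on models over untranslated sequence at the 3′ end of the gene that share the end chr1:154394588, plus strand. Scn3a had 22 and 13 antisense reads against 6 and 2 sense, Cacna1d 21 and 10 against 4 and 6, and Kcnk10 21 and 12 against 9 and 14. At Kcnk10 the locus had the same ends in both libraries (chr12:98430390-98432169, plus strand), with 19 and 12 reads. Kcnma1 had 82 and 40 against 21 and 13, but only 13 and 5 of these overlapped exons by at least 100 nt. The largest Kcnma1 loci lay in introns and touched exons by 1 to 12 nt. Scn1a (6 and 4 against 7 and 1) and Kcnh6 (12 and 6 against 2 and 3) also had more antisense than sense reads over both libraries, none of those of Kcnh6 with an overlap of 100 nt or more, as did Kcnh4, Scn11a and Scn4b with at most 2 antisense reads in a library.

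Antisense reads of at least 10 also stood at genes with more sense reads. These were Kcnc2 (15 and 8), Cacna1c (14 and 1), Kcnip4 (11 and 3), Scn8a (11 and 13), Kcna1 (8 and 2), Kcnd2 (2 and 11) and Kcnn2 (53 and 0). Fewer of these reads overlapped exons by at least 100 nt. They were 0 and 8 in Kcnc2, 6 and 1 in Cacna1c, 1 and 0 in Kcnip4, and 9 and 8 in Scn8a. Kcna1 had 8 and 1, Kcnd2 0 and 0, and Kcnn2 1 and 0. At Kcnn2 the count turned on a 1-nt overlap: a locus in an intron had 51 reads in replicate 1 and touched an exon by 1 nt, and 22 reads of replicate 2 lay at the same place without touching it. Annotated genes on the opposite strand added 282 and 249 reads, of which 185 and 181 were of Mcrs1 at Kcnh3 and 36 and 26 were of Gm10684 at Scn2b. Among antisense genes named after a channel gene, Kcnmb4os2 had 10 and 5 reads, Kcnd3os and Kcnq1ot1 1 in each library, Kcnab3os 1 and 0, and Kcnmb4os1 0.

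**Figure D5:**
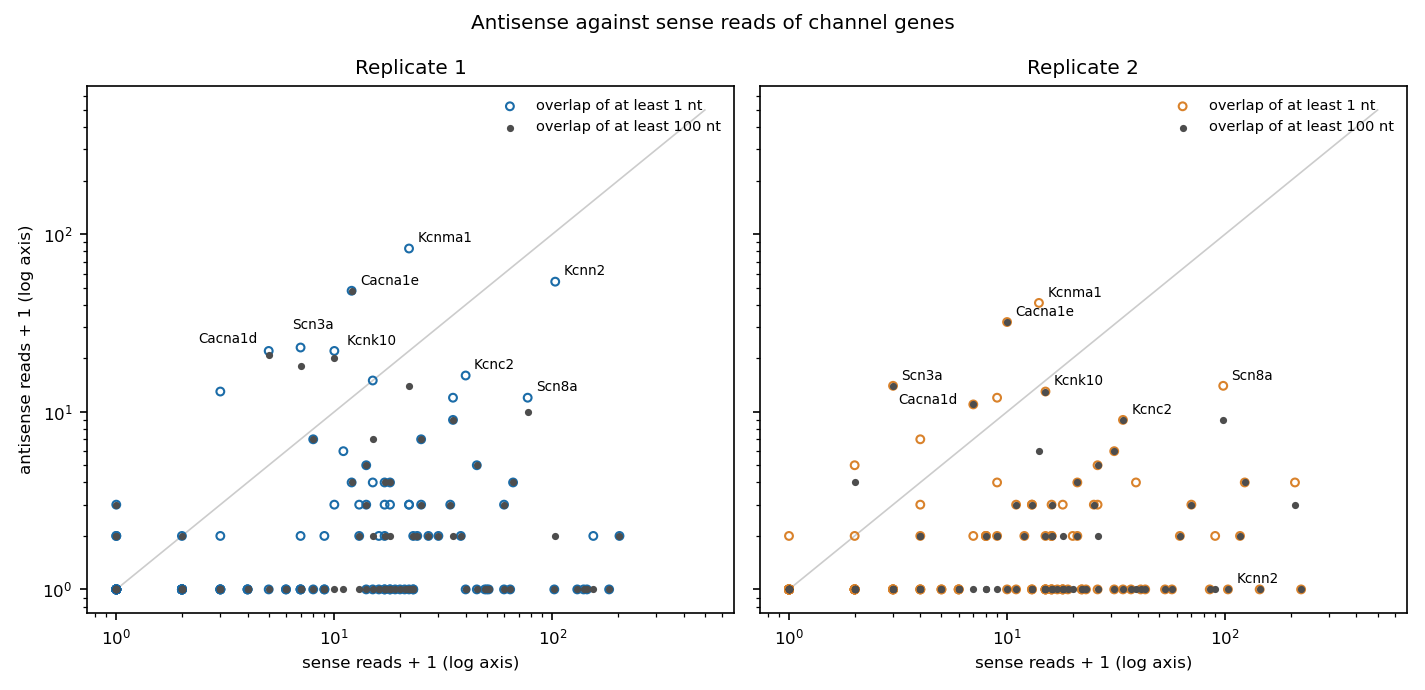
Antisense reads against sense reads of channel genes, both plus 1 on log axes, in each library; open circles count unannotated loci that overlap an exon by at least 1 nt and dark points those that overlap by at least 100 nt, and the grey line marks equal counts. Kcnma1 and Cacna1e lie above the line in both libraries (82 and 40, and 47 and 31 antisense reads), and the dark points of Kcnma1 lie below its circles.

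Few channel genes differed between the libraries. Of all 11681 genes with at least 10 reads 1266 were called (10.8%, by an exact binomial test, two-sided, of how a gene's reads divided between libraries given their totals, with Benjamini-Hochberg adjustment), and of the 74 channel genes tested 4 were called (5.41%), and 7 (9.46%) passed at an unadjusted p of 0.05, as did 2498 (21.4%) of all genes. By direction 1 channel gene was called higher in replicate 1 and 3 in replicate 2, where the shares over all genes were 5.03% and 5.81%. Kcnj13 was higher in replicate 1, with 49 reads against 0 (adjusted exact p = 2.33e-10). The 49 reads set against the limit of 3 give 12.4-fold in CPM, which leaves out the counting error of the 49 reads. Scn8a, 76 and 97 reads or 65.05 and 109 CPM, was 1.68-fold higher in replicate 2 (interval 1.23 to 2.3, adjusted exact p = 0.0125). Kcnab2, 155 and 234 CPM, was 1.51-fold higher in replicate 2 (1.23 to 1.85, adjusted exact p = 0.00136). Kcnk1, 173 and 249.8 CPM, was 1.45-fold higher in replicate 2 (1.19 to 1.76, adjusted exact p = 0.0034).

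Only Kcnj13 was called under each alternative that was run. Beside it, choroid plexus markers moved the same way: of the 8 listed genes 5 had enough reads for the test and 4 were higher in replicate 1, with Ttr at 5325 and 5 reads, Clic6 at 22 and 0, Folr1 at 20 and 0 and Kl at 18 and 1. Otx2 had 9 and 1 reads, Aqp1 3 and 0 and Prlr 0 and 3, and Slc4a5 was at 0 in both libraries. Their part in the Kcnj13 reads was not tested. The calls of other marker lists, given with the library depths, included genes higher in replicate 2 among neuron, interneuron, astrocyte and myelin markers, and their part in the calls of Kcnk1, Kcnab2 and Scn8a was not tested. The other 3 calls ended when the trend of the library ratio with transcript length was removed (adjusted exact p = 0.306 for Kcnab2, 0.0812 for Kcnk1 and 0.307 for Scn8a), and Scn8a was also not called with TMM-scaled totals (adjusted exact p = 0.0598), median-ratio scaling (0.0567) or annotated transcripts only (0.97). With the length trend removed, 398 of all 11681 genes were called (3.41%). Over the 74 genes the median log2 ratio of replicate 2 to replicate 1 was 0.205, with 54 above 0 and 20 below. Over all 11681 genes it was 0.112, with 6813 above 0 and 4868 below. TMM scaling shifts every log2 ratio by -0.127 and median-ratio scaling shifts it by -0.122.

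Partners of these channels were read alongside them. A list of 28 genes for proteins that bind, anchor or modulate the channels was read in full in both libraries and summed to 1236 and 1504 CPM. The most read were Fgf13, an intracellular sodium channel modulator (310 and 335 reads, 321 ± 78.9 CPM), Cntn1, an adhesion protein that binds sodium channel beta subunits (162 and 165, 162 ± 33.2 CPM), Lgi1, a secreted protein tied to Kcna channels (145 and 123, 131 ± 10.1 CPM) and Dlg4, a postsynaptic scaffold (106 and 73, 86.4 ± 6.07 CPM). Of 25 partners tested, Fgf13 was called, higher in replicate 2 (adjusted exact p = 0.000302), and none was higher in replicate 1.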

How the data were processed

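Per the file headers, the authors deposited whole-number read counts for each transcript model, in a table for each library, and the models' exons in an annotation on mm10 with GENCODE M21 and TALON as sources. The sources used here give no aligner, tool version, read filter or strand rule. From the deposited counts, gene sums and CPM over all reads of a library (1168366 and 888704) were computed. Exon sequences and coding regions came from GENCODE M21 transcripts. Models were matched between libraries by their introns.

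Every gene with a total of 10 or more reads entered an exact binomial test, two-sided. Leading transcripts (20 or more reads per library) and cassette exons (10 or more) entered Fisher's exact test. Each test ran over all genes, and p-values were adjusted by Benjamini-Hochberg at 0.05. Log2 ratios had 1 CPM added. With 1 group, p-values measure counting error and not the spread between animals. Alternatives were TMM (edgeR 4.0.16) and median-ratio (DESeq2 1.42.0) scaling, removal of the length trend (lowess, fraction 0.3, statsmodels 0.14.6), other minimums, annotated or multi-exon models only, and other overlap rules. The scripts were tested on simulated data. Other software was R 4.3.3, Python 3.11.15, matplotlib 3.10.9, scipy 1.17.1, pandas 2.3.3 and numpy 2.4.6.

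The members and lists were chosen with earlier results of these data known. Genes named are the 4 most read of each role, genes with 0 reads, genes called, the leading transcripts of the 10 most read, the extremes of 1-exon share, genes with 10 or more antisense reads or more antisense than sense reads, annotated cassette exons, the 5 most read unannotated chains and the 4 most read partners. Kcnd2, the transcript ends, the longest models and the Kcng2 exon were named after their values were seen. Some genes and exons that this rule covers are not reported here.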

Additional observations from a re-analysis of the deposited data

How the results depend on the processing

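The number of channel genes called between libraries was 4 and stayed from 3 to 5 with TMM or median-ratio scaling, other read minimums, annotated transcripts or multi-exon models only. In these alternatives 3.54% to 10.3% of the channel genes tested were called, against 5.75% to 13.7% of all genes tested. Kcnk12 (19 and 33 reads) was called in addition with annotated transcripts only (adjusted exact p = 0.0468) and with multi-exon models only (0.0449). With the length trend removed the count was 1 of 74 (1.35%), against 398 of all 11681 genes (3.41%). The cause was not tested. Differing leading transcripts were 0, and 1 with at least 10 reads in each library, where more genes are tested. Differing cassette exons were 0 under each minimum. Antisense reads were 637, 1474 with any overlap of the gene span and 347 with at least 100 nt of exon overlap, and the separate libraries gave 218 to 419. The share on annotated transcripts was 55.2%, 68.1% over multi-exon models, by construction without 1-exon reads, and 55.1% to 55.2% in the separate libraries. The 1-exon share was 22.4%, 20.5% to 24.2% in the separate libraries, and 20.7% without genes that have an annotated 1-exon transcript. Channel genes read in both libraries were 95, 76 with at least 3 reads in each, 58 with at least 10, 58 on annotated transcripts only and 80 on multi-exon models. Single libraries gave 101 to 107. No paired analysis was possible because there is 1 group. Depth limits exon shares, which rest on 10 to 121 reads per library in the plotted exons, and complete reads of the calcium alpha1 genes, which rest on 105.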
